A study of Homo sapiens with 10 samples.

Results

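The genes described are the 9 genes of the human m6A methyltransferase machinery, chosen by symbol. They are METTL3, METTL14, METTL16, WTAP, VIRMA, RBM15, RBM15B, ZC3H13 and CBLL1, and all 9 were found among the 58037 gene identifiers of the expression tables and passed the expression filter with 16406 genes in all. The samples were A549, a human lung adenocarcinoma line, and A549/DDP, a cisplatin-resistant line received as a gift, with no further treatment named in the labels for either. Each line had 2 input libraries, made from poly(A) RNA without antibody, and 2 m6A-seq libraries, made from fragments pulled down with an antibody against m6A. A second pair of A549 inputs, whose experiment the labels do not name, entered only as an alternative. The A549/DDP inputs carry A549 in their cell line label and a cisplatin-resistant cell type, and they were grouped by title. The dose and length of the selection in cisplatin were not given in the sources used here. The labels do not say that replicates came from separate cultures, so p-values measure the spread between these libraries, which may be technical.

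N6-methyladenosine, m6A, is the most abundant internal modification of messenger RNA and is placed while the RNA is made. METTL3 carries the active site and METTL14 holds the RNA in a stable heterodimer with it. The adaptor WTAP, with VIRMA, ZC3H13, the RNA-binding proteins RBM15 and RBM15B, and CBLL1, places the heterodimer in nuclear speckles and on its targets. METTL16 acts alone, on U6 small nuclear RNA and on hairpins of the MAT2A transcript, and belongs to the machinery but not to the complex.

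Total expected counts lay between 29225501 and 35286514 in the 4 input libraries, and mitochondrial genes held 0.036% to 0.055% of them. The 2 libraries of the second A549 pair held 855034 and 982036 counts, of which 211799 and 256064 lay outside mitochondrial genes. All 5 epithelial markers tested were detected in each line, though not all in every library. Their summed level was 3684 to 7921 TPM in A549 and 14736 to 14741 TPM in A549/DDP, most of it KRT8 and KRT18. KRT19 went the other way, at 33.34 and 63.95 TPM in A549 and at 9.24 and 0 TPM in A549/DDP. Of the lung epithelial markers, NKX2-1, SFTPB and SFTPC were at 0 in both A549 libraries, and their summed level did not pass 0.55 TPM in A549/DDP. The summed level of the leukocyte markers was 0.03 to 0.63 TPM in A549 and 1.52 to 4.86 TPM in A549/DDP, that of the endothelial markers 0.21 to 0.40 TPM and 0 to 0.20 TPM, and that of the fibroblast markers 5.10 to 8.14 TPM and 2.50 to 17.39 TPM. Within the A549/DDP leukocyte sum, CD14 was at 1.46 and 4.86 TPM, PTPRC at 0.06 and 0 TPM, and CD3E at 0 in both libraries. The part of these markers in the results was not tested. In bulk RNA, fewer cells with a transcript and less of it in each cell cannot be told apart.

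Promoter sequences are shown for METTL3, the catalytic gene, and for METTL16 and RBM15B, the members with the lowest and the highest log2 fold change between the lines. They are RefSeq sequences of GRCh38.p14, 5′ to 3′ on the strand of the gene, and position 1 is the RefSeq start. Capitals mark a word of 9 bases found at 3 places in METTL3, and the YY1-type core ATGGCGGC in METTL16 and RBM15B.
METTL3, chr14:21511311-21511590, minus strand, positions -250 to 30: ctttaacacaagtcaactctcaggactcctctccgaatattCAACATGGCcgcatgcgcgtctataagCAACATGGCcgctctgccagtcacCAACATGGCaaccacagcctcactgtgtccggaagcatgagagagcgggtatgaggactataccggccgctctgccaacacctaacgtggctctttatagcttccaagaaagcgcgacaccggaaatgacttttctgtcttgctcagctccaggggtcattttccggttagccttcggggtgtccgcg
METTL16, chr17:2511859-2512008, minus strand, positions -120 to 30: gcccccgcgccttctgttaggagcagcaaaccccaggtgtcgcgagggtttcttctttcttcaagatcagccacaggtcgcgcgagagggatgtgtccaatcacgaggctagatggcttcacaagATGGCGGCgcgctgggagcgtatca
RBM15B, chr3:51391165-51391314, plus strand, positions -120 to 30: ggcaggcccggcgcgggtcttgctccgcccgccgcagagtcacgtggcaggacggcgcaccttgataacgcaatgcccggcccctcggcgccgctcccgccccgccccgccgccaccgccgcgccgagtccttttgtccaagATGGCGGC
The repeated METTL3 word, CAACATGGC, began at positions -209, -182 and -158. Of 35116 promoter windows of 300 bases, 5.86% held any 9-base word at 3 or more places. ATGGCGGC, searched on both strands like the other motifs, began at position 6 in METTL16 and at position 23 in RBM15B, and 3.0% of all windows held it.

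RefSeq windows were given for 8 of the 9 members, 9 windows in all since WTAP had 2, and none was given for VIRMA. The NFY motif CCAAT was in the windows of METTL3, METTL14, METTL16, WTAP, RBM15, ZC3H13 and CBLL1, against 34.6% of all windows, with 6 matches in RBM15. The ETS core CCGGAA was in those of METTL3, METTL14, METTL16, ZC3H13 and CBLL1, against 17.2% of all windows, with 3 matches each in METTL3 and METTL14. The E-box CACGTG was in RBM15 and RBM15B (7.26% of all windows), the NRF1-type GCATGCGC was in METTL3 alone among these windows (3.05%), and the CRE TGACGTCA was in none of them (1.85%). These are matches of letters in the window and not sites of binding.

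Compared per length in TPM, the writer genes differed in order between the lines. In A549 the mean level was 81.6 TPM ± 15.5 (SD, n = 2, as for all means below) for VIRMA and 81.1 TPM ± 15.1 for WTAP, followed by METTL16 at 68.4 TPM ± 2.28 and ZC3H13 at 64.7 TPM ± 1.76. CBLL1 at 50.5 TPM ± 4.75 and METTL3 at 48.4 TPM ± 2.48 came next, before METTL14 at 28.0 TPM ± 3.63, RBM15B at 18.8 TPM ± 0.827 and RBM15 at 13.6 TPM ± 0.269. Of the neighbours in this order, VIRMA and WTAP overlapped in their libraries, as did CBLL1 and METTL3, and the others did not. In A549/DDP METTL3 came first at 72.2 TPM ± 21.4, with VIRMA at 69.1 TPM ± 4.60 within its range. ZC3H13 at 36.1 TPM ± 8.65, CBLL1 at 33.7 TPM ± 10.6 and WTAP at 31.5 TPM ± 0.085 followed and overlapped one with the next, and RBM15B at 29.4 TPM ± 1.34 lay below all of the WTAP values. METTL14 at 24.9 TPM ± 1.39, METTL16 at 22.2 TPM ± 7.56 and RBM15 at 15.8 TPM ± 6.07 stood last, each overlapping the next. The 9 genes summed to 455 TPM ± 4.04 in A549 and 335 TPM ± 20.5 in A549/DDP.

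**Figure D1:**
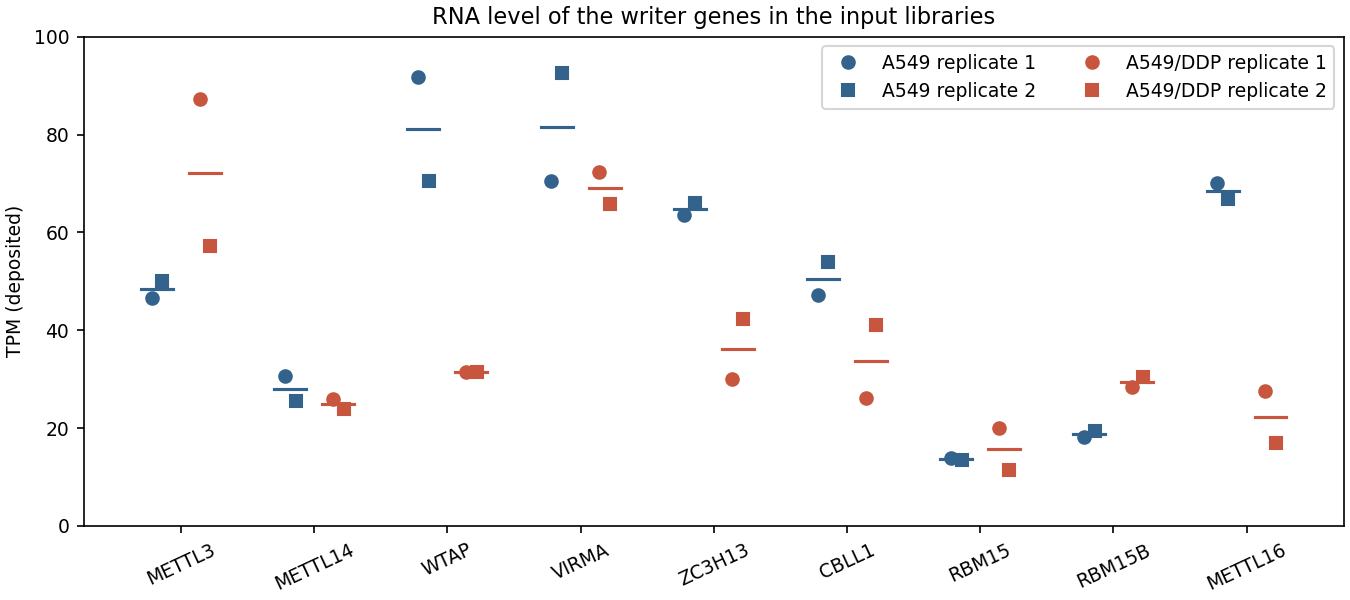
RNA level in TPM (vertical axis) of each writer gene (horizontal axis) in the 4 input libraries, with a point per library and a line at the mean of each line. METTL16 lies at 66.83 and 70.05 TPM in A549 and at 16.88 and 27.57 TPM in A549/DDP, while the 2 lines interleave for VIRMA, RBM15 and METTL14.

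The comparison of the lines asks whether the m6A writers differ in RNA between cisplatin-resistant and parental cells. METTL16 and WTAP fell in A549/DDP, and no member was called higher in this fit, where RBM15B lay closest to the threshold among the members with higher values. By edgeR's quasi-likelihood test, 2 of the 9 members passed a Benjamini-Hochberg adjusted p under 0.05, against 14.9% of all genes tested. Both were lower in A549/DDP, where 8.00% of all genes were called lower and 6.85% higher. The median log2 fold change of the 9 was -0.56, beside -0.0016 over all genes tested. An unadjusted p under 0.05 was found for 4 of the 9 members and for 5360 of all 16406 genes tested. The CPM ranges of the lines lay apart for 7 of 9 members, all but VIRMA and RBM15, which is to be read against 62.4% of all genes. CPM below is scaled by TMM, and each log2 fold change is A549/DDP over A549 with its standard error.

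METTL16, the methyltransferase of U6 small nuclear RNA (ENSG00000127804), had the lowest log2 fold change of the 9. It was at 190 and 149 CPM in the A549 libraries and at 80.1 and 58.3 CPM in the A549/DDP libraries. Both A549/DDP values lay below both A549 values. METTL16 fell by 1.30 ± 0.24 on the log2 scale, with an adjusted p of 0.0198 by edgeR, and was 2.45-fold lower. The call was lost without A549/DDP replicate 2, at an adjusted p of 0.0724, and with both A549 pairs, at 0.366. With the second A549 pair alone the log2 fold change turned to 0.36, where the median over all genes was 0.80 and METTL16 had 4 and 9 counts in that pair.

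WTAP, the adaptor that brings the heterodimer to nuclear speckles (ENSG00000146457), was at 109 and 73.3 CPM in A549 and at 40.7 and 35.6 CPM in A549/DDP. The lower A549 library still stood above both A549/DDP libraries. WTAP fell by 1.25 ± 0.26 on the log2 scale, with an adjusted p of 0.0277 by edgeR, and was 2.39-fold lower. The adjusted p was 0.0515 without A549/DDP replicate 1 (log2 fold change -1.37), 0.0784 without A549/DDP replicate 2 (-1.17) and 0.0624 with both A549 pairs (-1.36). With the second A549 pair alone the adjusted p was 0.0236 (-1.27), in a fit that called 27.2% of all genes. The median log2 fold change over all genes was 0.80 there, and WTAP had 10 and 12 counts in that pair.

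For METTL3, the catalytic subunit (ENSG00000165819), the values were 54.7 and 52.4 CPM in A549 and 91.8 and 61.4 CPM in A549/DDP. Both A549/DDP values were the higher ones, but they differed from each other by more than the lower of them differed from A549. The log2 fold change was 0.52 ± 0.25 with an adjusted p of 0.217 by edgeR, so METTL3 was not called. Without A549/DDP replicate 1 it was 0.18. The 3 genes whose centred log2 CPM followed METTL3 most closely over the 4 inputs, of 11231 genes compared, were APH1A, SIRT5 and DDX49, with root mean square differences of 0.0215, 0.0288 and 0.0298 on the log2 scale. How close the nearest genes of other genes lie was not counted. A link of these 3 genes with METTL3 was not tested.

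METTL14, the RNA-binding partner of METTL3 (ENSG00000145388), was at 33.7 and 34.8 CPM in A549 and at 28.1 and 18.3 CPM in A549/DDP. The groups were apart in CPM, but in TPM the 4 values were 30.6 and 25.5 in A549 and 25.9 and 23.9 in A549/DDP, which overlap. Its log2 fold change was -0.56 ± 0.31 with an adjusted p of 0.282 by edgeR.

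The balance of the heterodimer genes was followed as the ratio of METTL14 to METTL3 in TPM. It was 0.656 and 0.508 in the A549 libraries and 0.296 and 0.418 in the A549/DDP libraries. All A549/DDP ratios lay below the A549 ratios, with means of 0.582 ± 0.105 and 0.357 ± 0.0865. How often the ratios of other gene pairs separate the lines was not counted. For single genes, CPM ranges lay apart in 62.4% of those tested. Neither gene of the ratio was called by edgeR, with an adjusted p of 0.217 for METTL3 and 0.282 for METTL14. The ratio is a description and was not tested. A two-sided exact permutation test of 2 libraries against 2 cannot go below p = 0.333. The METTL16 to METTL3 ratio was 1.5 and 1.33 in A549 and 0.316 and 0.295 in A549/DDP, and the WTAP to METTL3 ratio was 1.97 and 1.40 in A549 and 0.361 and 0.549 in A549/DDP. METTL3 therefore made up 10.6% ± 0.451 of the summed TPM of the 9 genes in A549 and 21.4% ± 5.07 in A549/DDP, while METTL16 made up 15% ± 0.634 and 6.58% ± 1.85.

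VIRMA, the scaffold of the regulatory part of the complex (ENSG00000164944), was at 94.7 and 102 CPM in A549 and at 101 and 77.6 CPM in A549/DDP, and the groups overlapped. Its log2 fold change was -0.14 ± 0.20 with an adjusted p of 0.722 by edgeR. ZC3H13, the zinc finger protein that keeps the regulatory part in the nucleus (ENSG00000123200), was at 268 and 255 CPM in A549 and at 127 and 180 CPM in A549/DDP. Both A549/DDP values were lower, and the log2 fold change of -0.77 ± 0.21 had an adjusted p of 0.0607 by edgeR. ZC3H13 passed the threshold under 6 of 15 alternatives and turned to 0.68 with the second A549 pair, in which it had 10 and 13 counts. CBLL1, also known as the E3 ubiquitin ligase HAKAI (ENSG00000105879), was at 58.5 and 50.5 CPM in A549 and at 24.0 and 42.4 CPM in A549/DDP. The A549/DDP values were lower and lay far from each other, and the log2 fold change of -0.71 ± 0.32 had an adjusted p of 0.190 by edgeR.

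RBM15 and RBM15B are paralogs that recruit the complex to sites on RNA. RBM15 (ENSG00000162775) was at 30.6 and 26.4 CPM in A549 and at 41.3 and 23.8 CPM in A549/DDP, so that A549/DDP held both the highest and the lowest library. Its log2 fold change was 0.19 ± 0.34 with an adjusted p of 0.776 by edgeR. RBM15B (ENSG00000259956) was at 82.3 and 76.7 CPM in A549 and at 121 and 128 CPM in A549/DDP. The groups did not overlap and replicates were close, with a log2 fold change of 0.64 ± 0.17 and an adjusted p of 0.0589 by edgeR. The adjusted p of RBM15B was 0.0151 with DESeq2 and 0.0441 with upper-quartile scaling in edgeR. It was 0.276 with limma on log2(TPM + 1) and 0.245 by edgeR with both A549 pairs, so its call depended on the method. Per length, RBM15B stood at 18.2 and 19.4 TPM in A549 and 28.5 and 30.4 TPM in A549/DDP, above RBM15 in every one of the 4 libraries.

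**Figure D2:**
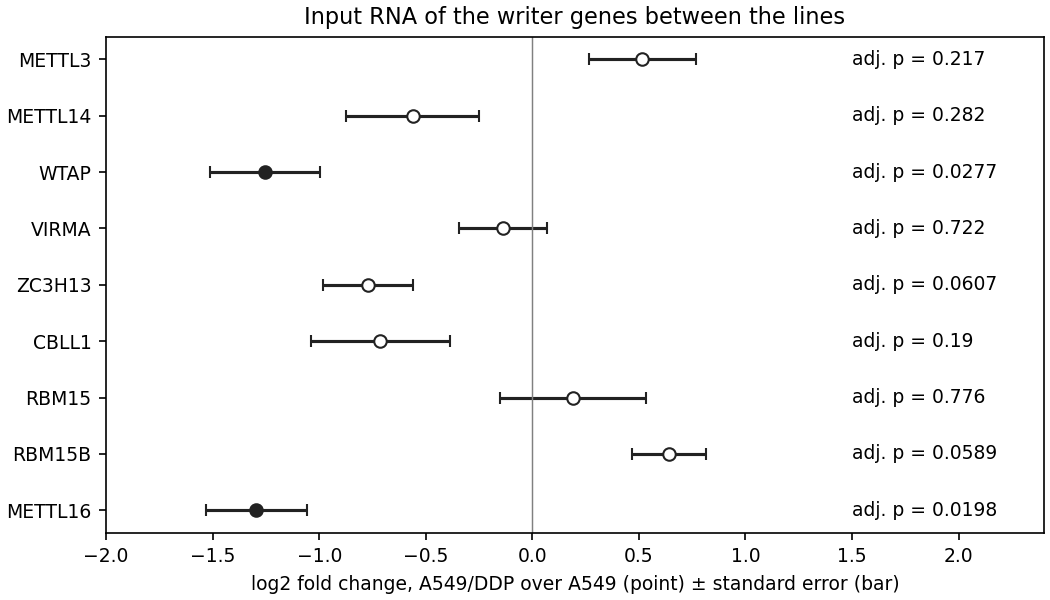
Log2 fold change of A549/DDP over A549 for each writer gene with its standard error (horizontal axis), with filled points for genes with an adjusted p under 0.05 and the adjusted p at the right. WTAP at -1.25 and METTL16 at -1.30 are the filled points, and RBM15B at 0.64 is the highest of the open ones.

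Genes next to, antisense to or copied from members held few reads. CBLL1-AS1, antisense to CBLL1, had 18 expected counts in A549 replicate 1, 101 in A549/DDP replicate 1 and 0 in the replicates numbered 2 of these pairs, with 2 counts in the second A549 pair. RBM15-AS1 had 13 counts and the pseudogene WTAPP1 had 37 counts, each in A549 replicate 1 alone among the 6 inputs. METTL14-DT and CBLL2 were at 0 in every input. The paper describes its input libraries as strand-specific, but whether strand was used in the counting was not given in the sources used here. Reads of CBLL1 or RBM15 and of their antisense genes therefore cannot be told apart with certainty.

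The tables also give for each gene the mean length of its transcripts, weighted by their abundance, which moves with the isoforms in use. For METTL16 the weighted length was 4037 and 3808 bases in A549 and 4593 and 5483 bases in A549/DDP. Both A549/DDP values were longer, 1.28-fold in the mean, which widens the difference of METTL16 in TPM over that in CPM. WTAP was at 1820 and 1843 bases in A549 and at 2105 and 1890 bases in A549/DDP, and ZC3H13 at 6224 and 6508 bases and at 6646 and 6734 bases. METTL3 was shorter in A549/DDP by a small margin, at 1738 and 1796 bases against 1805 and 1849 bases. These 4 of the 8 members with more than 1 length value had ranges that lay apart, and so did 37.2% of all genes compared. METTL14 was at 1703 and 2383 bases in A549 and 1792 and 1321 bases in A549/DDP. METTL14, VIRMA, RBM15 and CBLL1 overlapped between the lines, and RBM15B was at 6641 bases in every library.

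**Figure D3:**
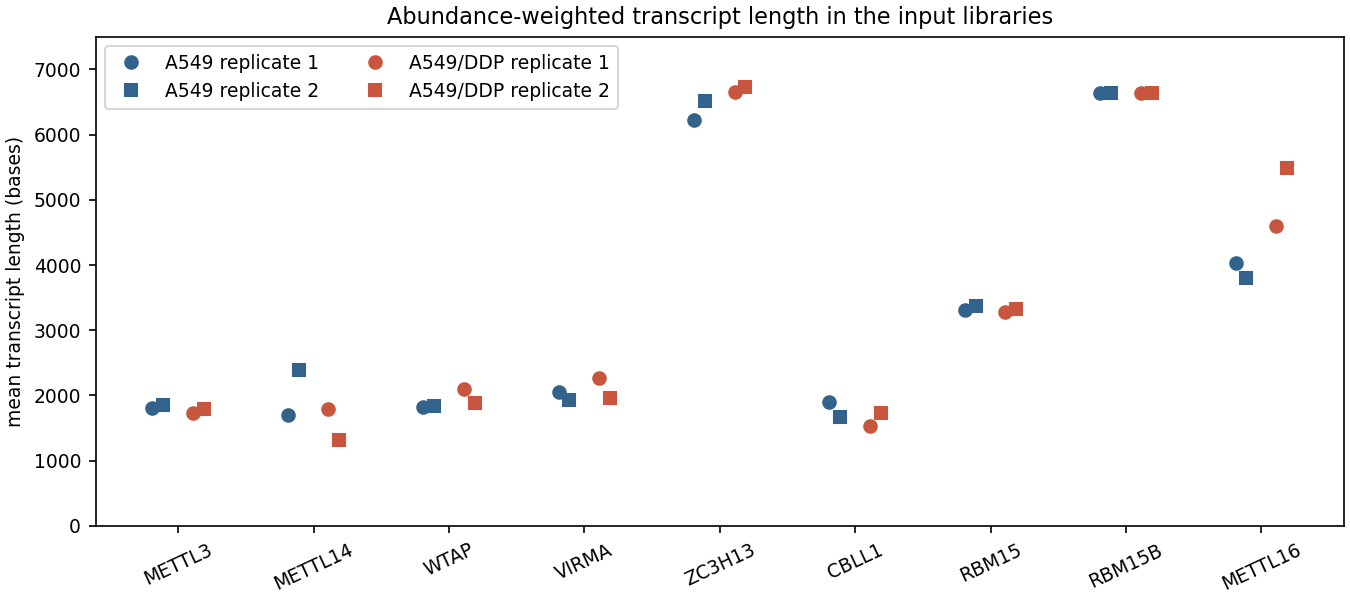
Abundance-weighted mean transcript length in bases (vertical axis) of each writer gene (horizontal axis), with a point per input library. METTL16 is at 4037 and 3808 bases in A549 and at 4593 and 5483 bases in A549/DDP, and METTL14 spreads from 1703 to 2383 bases within A549.

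The m6A-seq lists ask which of the writer transcripts themselves carry called m6A regions. Each list holds peaks of 1 library with their exon blocks and a p-value, and no height or depth, so levels of methylation were not compared. All 9 members had a peak in at least 1 library, against 57.0% of all genes tested. They had 46 peaks covering 16810 bases in A549 replicate 1, 29 peaks covering 13795 bases in A549 replicate 2, 39 peaks covering 13089 bases in A549/DDP replicate 1 and 20 peaks covering 4354 bases in A549/DDP replicate 2. The lists as a whole held 26320, 14576, 27244 and 10661 peaks in the same order, so A549/DDP replicate 2 was the shortest list for the members and for all genes.

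METTL16, RBM15, RBM15B, ZC3H13 and CBLL1 had peaks in all 4 libraries, 5 of 9 members against 13.9% of all genes. This count was 0 of 9 with lists of equal size, against 2.07% of all genes, 0 of 9 with p-values at or below 1e-05, against 1.55%, and 8 of 9 without A549/DDP replicate 2, against 21.7%. METTL14, WTAP and VIRMA, 3 of 9, had peaks in the other 3 libraries and none in A549/DDP replicate 2, as did 7.89% of all genes. METTL3 had peaks in A549 replicate 1 and in no other library, as did 7.59% of all genes. The p-values of its 5 peaks ran from 1.3e-07 to 8.9e-07. In that list 13932 of 26320 peaks had a p-value at or below 1e-05, and the largest was 0.026. The shares of all genes include genes of low expression, and members and all genes were not matched for expression.

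Peaks were joined into regions where their exon blocks shared at least 1 base. The 9 members held 41 regions, of which 7 (17.1%) were called in all 4 libraries, against 8.72% of all regions. With lists of equal size or p-values at or below 1e-05 no member region was in all 4, against 1.86% and 1.48% of all regions. A further 8 regions were called in 3 libraries, 9 in 2 and 17 in 1, and the shares of all regions were not counted for these. Coordinates are those of the lists in hg38, and distances are along the gene from the RefSeq start or to the RefSeq end. In RBM15 the merged region found in all 4 libraries, chr1:110339499-110342281, was a single block of 2783 bases that began 122 bases after the start of a gene spanning 7301 bases. In its paralog RBM15B the merged region of all 4 libraries, chr3:51391817-51394413, was also a single block, of 2597 bases, and began 532 bases after the start of a gene of 6624 bases. These blocks are unions over the libraries. Within them and nearby, RBM15 had 2 to 5 peaks per library covering 949 to 2585 bases in all, and RBM15B had 2 to 6 peaks covering 801 to 2800 bases.

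In the other members with shared regions these lay farther along the gene. CBLL1 held 1 region only, chr7:107755480-107759375, with 1346 bases in 2 exon blocks, which began after 64.7% of the gene. ZC3H13 held 3 of the 7 shared regions, chr13:45964012-45968018, chr13:45968986-46001239 and chr13:46001439-46010229, of which the middle one covered 2691 bases in 7 exon blocks. METTL16 carried its shared region, chr17:2419540-2420584, as 1 block of 1045 bases that ended 3825 bases before the end of a gene of 96174 bases.

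Some regions were called in both libraries of 1 line and in neither of the other. There were 4 in A549, or 9.76% of the 41, against 6.12% of all regions, with 3 in METTL14 and 1 in METTL16. The METTL16 region, chr17:2416157-2416570, ended 442 bases before the end of the gene, and its lowest p-value was 0.00079. The 3 METTL14 regions were chr4:118687987-118689445, chr4:118691607-118697196 and chr4:118710809-118711058. The A549/DDP replicate 2 list held no METTL14 peak at all. ZC3H13 held the 1 region of both A549/DDP libraries alone, chr13:46010428-46011536, with 200 bases in 2 blocks. The share of all regions with this pattern was not counted, so the 4 and the 1 cannot be compared between the lines. METTL16 and METTL14 had a lower mean RNA level in A549/DDP, and the part of expression and of list length in these differences was not tested.

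METTL3 held 5 regions, all of A549 replicate 1, and the one at chr14:21511125-21511325 began 15 bases after the RefSeq start, within the end of the promoter stretch printed above. The other 4 METTL3 regions began after 56.2% to 78.9% of the gene. WTAP held 5 regions, of which chr6:159743680-159749074 and chr6:159755123-159755622 had peaks everywhere but in A549/DDP replicate 2. The second of these ended 697 bases before the end of the gene. VIRMA held 9 regions, with 4 of them in the same 3 libraries.

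**Figure D4:**
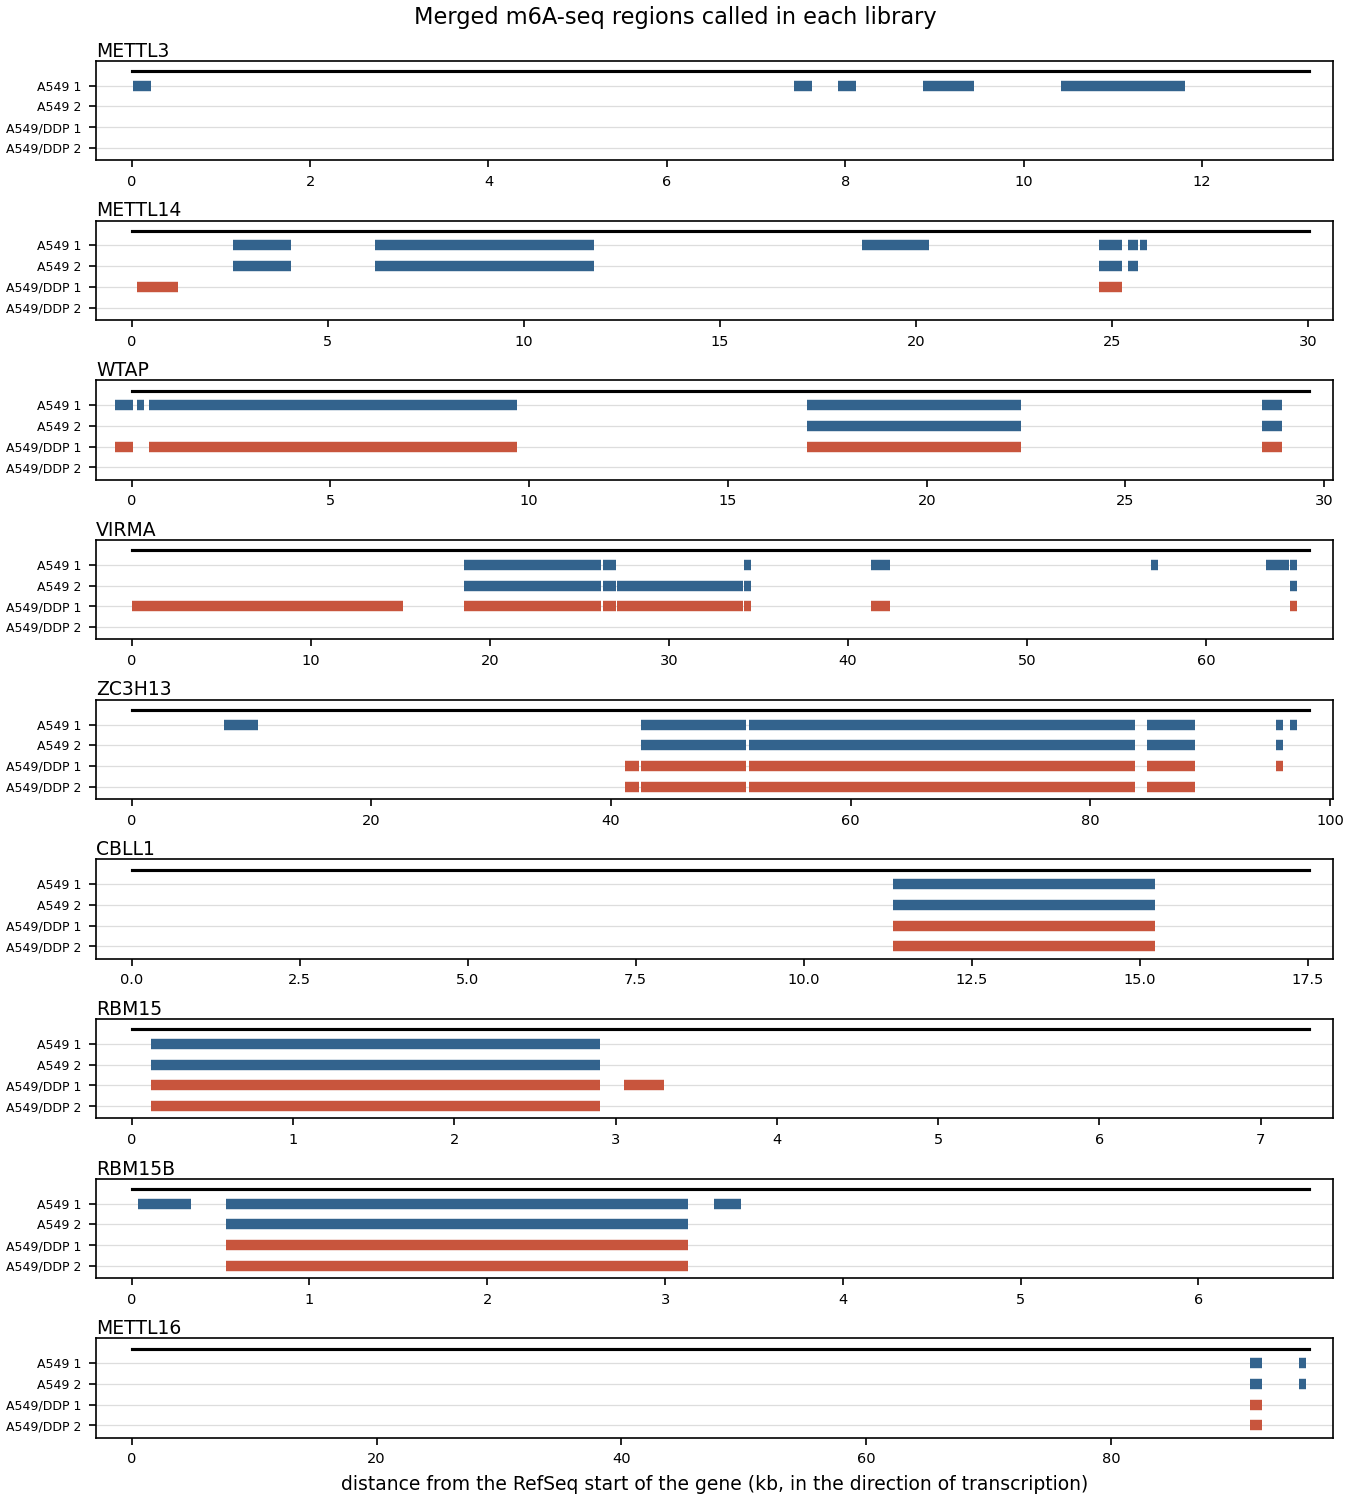
Merged m6A-seq regions of each writer gene by library, with the distance from the RefSeq start of the gene in kb on the horizontal axis, the gene as a black line, and bars that span the exon blocks of a region and the introns between them. METTL3 has its 5 regions in A549 replicate 1 alone, and CBLL1, RBM15, RBM15B, METTL16 and ZC3H13 have at least 1 region in each of the 4 libraries.

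Around the writers, 29 further m6A genes in 5 lists were tested in the same fit, and 7 were called, to be read against 14.9% of all genes. Of the other RNA N6-adenine methyltransferases and cofactors, 1 of 5 was called: METTL5, the 18S ribosomal RNA enzyme, fell by 1.12 ± 0.25 on the log2 scale, with an adjusted p of 0.0359 by edgeR. Of the genes that supply S-adenosylmethionine, the methyl donor, 1 of 8 was called. This was MAT2A, the synthetase whose transcript METTL16 binds, at 232 and 273 CPM in A549 and 462 and 491 CPM in A549/DDP. MAT2A rose by 0.91 ± 0.16 with an adjusted p of 0.0188 by edgeR, beside the lower METTL16. A link between MAT2A and METTL16 was not tested. MAT2B, the partner of MAT2A, was at a log2 fold change of 0.0037 ± 0.23.

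Of the readers and erasers, 1 of 7 was called. YTHDC1, the nuclear reader, was at 474 and 321 CPM in A549 and 82.4 and 83.5 CPM in A549/DDP, and fell by 2.26 ± 0.23 on the log2 scale with an adjusted p of 0.00434 by edgeR. The erasers FTO and ALKBH5 were at log2 fold changes of 0.67 ± 0.23 and 0.04 ± 0.21, with adjusted p of 0.107 and 0.929. Of the exon junction complex, which keeps m6A away from splice junctions, 2 of 5 were called: MAGOH fell by 1.70 ± 0.37 with an adjusted p of 0.0314, and CASC3 fell by 1.03 ± 0.19 with an adjusted p of 0.0195. Of 4 known partners of METTL3 and METTL14 outside the complex, 2 were called. CEBPZ, which holds METTL3 at promoters, fell by 1.12 ± 0.20 with an adjusted p of 0.0181, and ZNF217, which binds METTL3, fell by 1.87 ± 0.20 with an adjusted p of 0.00467. In all, 6 of the 29 were called lower in A549/DDP and 1 higher, beside 8.00% and 6.85% of all genes. The median log2 fold change was -0.45 in the other methyltransferases, 0.13 in the methyl donor genes, -0.13 in the readers and erasers, -1.03 in the exon junction complex and -0.89 in the partners.

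**Figure D5:**
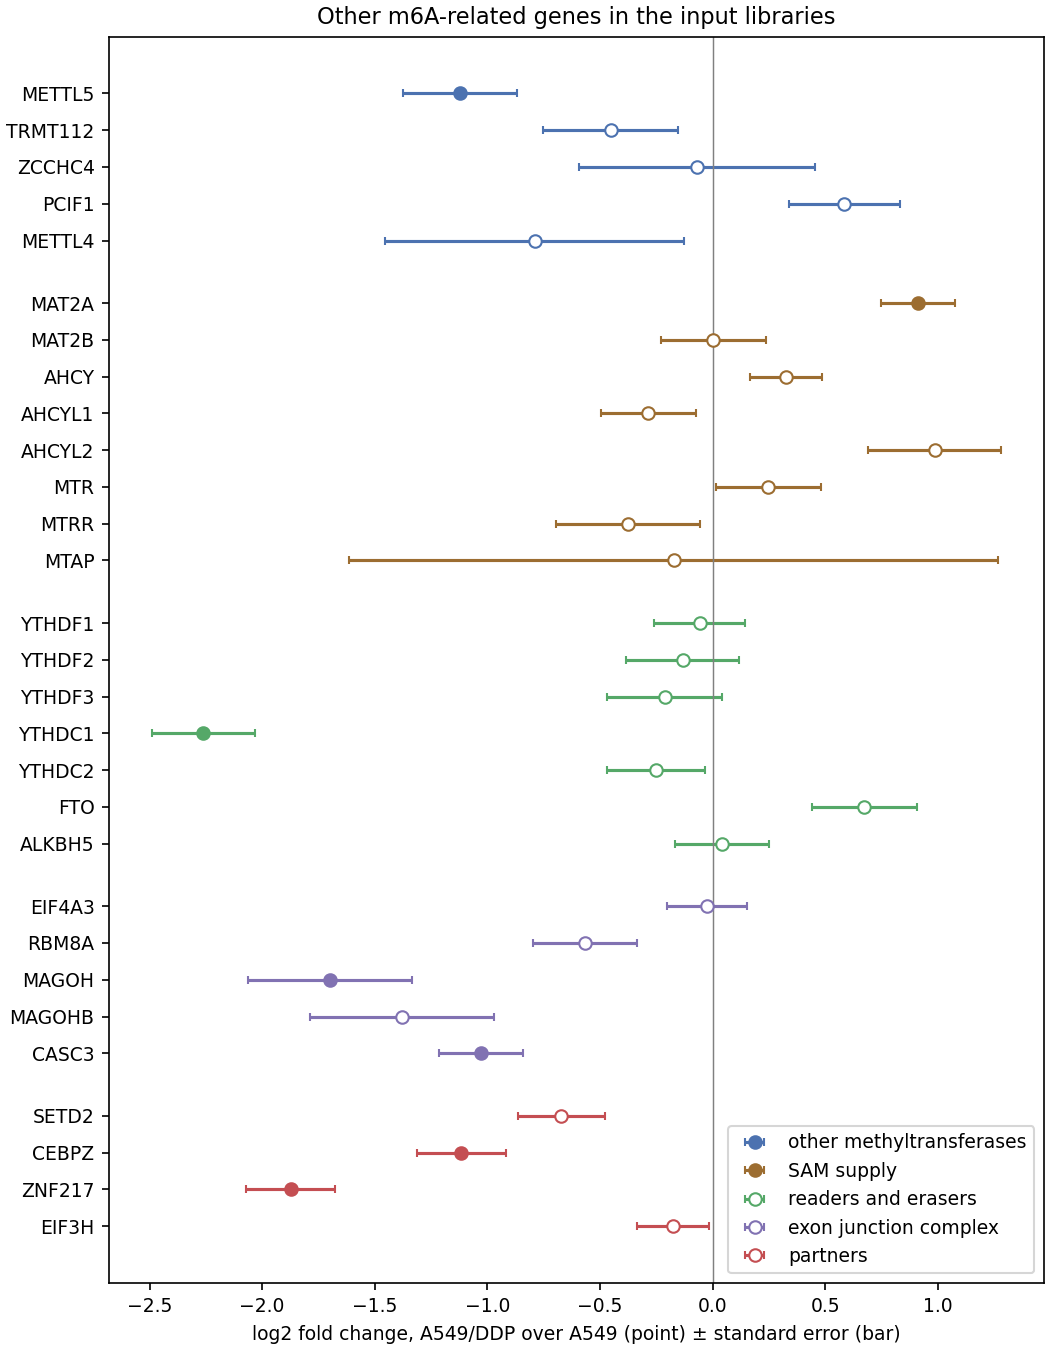
Log2 fold change of A549/DDP over A549 with its standard error (horizontal axis) for 29 genes around the writer complex, coloured by list, with filled points for an adjusted p under 0.05. YTHDC1 at -2.26 and ZNF217 at -1.87 are the lowest of the filled points, and MAT2A at 0.91 is the filled point above 0.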

How the data were processed

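Input RNA-seq and m6A-seq libraries of A549 and A549/DDP were grouped and numbered by their labels. In the A549 m6A-seq pair, file names and labels carry opposite replicate numbers, and the labels were used. RIP-seq of YTHDF1 was not used here.

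Per input, the authors deposited RSEM-style gene values, namely expected counts with TPM, FPKM and transcript lengths in bases. The deposited expected counts are not normalized and need not be whole, and TPM and FPKM are scaled by length and depth. Per m6A-seq library, the authors deposited called peaks with a p-value, which the lists do not call raw or adjusted. Replicates were not pooled. The submitters' processing notes name STAR, RSEM, bedtools and hg38, and the peak caller was not given in the sources used here. The depth of the m6A-seq libraries is unknown.

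After rounding, filterByExpr and TMM scaling, the counts were fitted in edgeR 4.0.16 (glmQLFit, glmQLFTest; R 4.3.3), with Benjamini-Hochberg adjustment over 16406 genes and a threshold of 0.05. No replicate block was used. The standard error is the size of the log2 fold change over the square root of F. The common biological coefficient of variation was 0.656. The code of the fit was checked on simulated data with a smaller spread than this and with larger changes than those of the members. That check does not speak for the fit at the spread of these libraries. Identifiers were matched by Ensembl gene ID (56993 of 58037). Alternatives were DESeq2 1.42.0, limma 3.58.1 on log2(TPM + 1), log2(TPM + 0.1) and log2(FPKM + 1) with a mean of at least 1, no filter, at least 10 counts in every library, RLE and upper-quartile scaling, the second A549 pair or both pairs, a replicate block, and leaving out each library. Peaks were merged on 1 strand where exon blocks overlapped by at least 1 base. An overlap of 50% of the shorter peak, a p limit of 1e-05 and 10661 peaks per list (ties broken with seed 4) were alternatives. Promoter windows run from 250 bases before to 50 bases after the RefSeq start. Python 3.11.15, numpy 2.4.6, pandas 2.3.3 and matplotlib 3.10.9 were used.

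Named genes were all members, every called gene of 5 further lists, neighbours and copies of members with any count, and the 3 genes most like METTL3 among those with a mean of at least 5 CPM. MAT2B, FTO and ALKBH5 were named after their values were seen. The members and lists were chosen with earlier results of these data known.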

Additional observations from a re-analysis of the deposited data

Results flagged for a closer look

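The second pair of A549 inputs, which enters no main comparison, held reads of the members. The 9 genes had 72 expected counts together in the first of these libraries and 74 in the second, between 0 and 22 per gene in the first and between 2 and 13 in the second. They are given because they lie in data outside the main comparison. METTL3 and METTL14 had 2 to 5 counts each, so the values of single members that involve this pair rest on few reads.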

How the results depend on the processing

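The count of members called was 2, beside 14.9% of all genes tested. It was 4 with DESeq2 (19.0% of all genes), 4 without a filter (17.6%), 4 with at least 10 counts in every library (28.1%), 0 with both A549 pairs (4.10%) and 0 to 4 when a library was left out (4 without A549 replicate 1, 1 without A549/DDP replicate 1 and 0 without A549/DDP replicate 2, beside 17.2%, 11.2% and 11.1% of all genes). A left-out library leaves 1 library in its line, which is assumed to vary like the others. The count of 7 called among the other m6A genes was 11 without a filter (17.6% of all genes), 13 with the second pair (27.2%) and 2 with both pairs (4.10%). It also fell when either A549/DDP library was left out and rose when either A549 library was left out. Alternatives were not followed for single genes of these other lists. Directions turned for METTL16 (0.36) and ZC3H13 (0.68) with the second pair, where the median over all genes was 0.80. Left-out libraries took VIRMA from -0.36 to 0.031 and RBM15 from -0.28 to 0.53. No RLE or upper-quartile scaling turned the direction of a member. The 7 regions and 5 members with peaks in all 4 libraries were 0 and 0 with peaks at or below 1e-05 and 0 and 0 with lists of equal size, and 8 to 15 regions and 5 to 8 members when a library was left out, the highest without A549/DDP replicate 2. The METTL14 to METTL3 ratio in A549/DDP over A549 was 0.614, and 0.453 with the second pair, whose own ratios were 1.23 and 0.344, from 2 to 5 counts per gene, so that its range overlaps that of A549/DDP. Where no other value is given, the cause was not tested.

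With the replicate number as a replicate block, 3 members were called, with ZC3H13 added at a log2 fold change of -0.79 and an adjusted p of 0.0146 by edgeR, and 9 of the other m6A genes. The block raised the genes called from 14.9% to 21.6% of those tested. Deviations of same-numbered libraries correlated at 0.0217 over 14384 genes, and the numbers share no stated culture or day.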
